A study of Mus musculus with 12 samples.

Results

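The genes described here are 9 genes of the basement membrane: the laminin chain genes Lama1, Lama5, Lamb1, Lamb2 and Lamc1, the nidogen genes Nid1 and Nid2, the perlecan gene Hspg2, and Sparc. They were taken by symbol from the gene tables and linked by Ensembl ID to the count files of all 12 libraries, with collagen genes left out, which gave 9 of 21728 genes. All 9 are protein-coding and were listed in every library, with 29 to 25414 counts per library. The counts came from mRNA libraries of mouse cells made from embryonic stem cells in culture, in 4 groups of 3 libraries. The question was whether bisphenol A (BPA), a plasticiser component with oestrogenic activity, alters the cells at the epiblast stage and after they have been turned into germ cells.

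The groups were primordial germ cell-like cells (PGCLCs) of the BPA arm, untreated PGCLCs, epiblast-like cells (EpiLCs) given 100 nM BPA and untreated EpiLCs. All 4 groups share the C57BL/6 strain and the Blimp1-mVenus and Stella-ECFP reporters (BVSC), and all start from stem cells kept in 2i + LIF. EpiLCs were cultured for 48 h, and BPA was in their medium for 24 h, from 24 h after seeding. PGCLCs carry the label d5 and were sorted as Blimp1 and Stella positive cells from aggregates dissociated with TrypLE, so each library holds cells chosen by reporter light and not by a matrix protein. BPA in the later PGCLC medium is not stated in the labels. Nor do the labels give separate cultures as the origin of replicates, and the p-values then measure only the spread between these libraries, which may be technical. Untreated EpiLCs are described as water controls. The 3rd untreated EpiLC library carries another replicate number in its description than in its title, and the title was followed. Library names follow 1 scheme in EpiLCs, another in untreated PGCLCs and yet another in PGCLCs of the BPA arm, so a library batch cannot be told apart from the BPA effect in PGCLCs or from the stage difference.

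A basement membrane is a thin sheet of matrix under epithelia. Laminins are trimers of an alpha, a beta and a gamma chain that polymerise on the cell surface, where integrins and dystroglycan bind them. Nidogens link the laminin network to the network of type IV collagen, perlecan is a large heparan sulphate proteoglycan of the sheet, and Sparc is a secreted glycoprotein that binds collagen. In the early mouse embryo the trimer of the Lama1, Lamb1 and Lamc1 chains is laid down between epiblast and visceral endoderm and, in bulk, by parietal endoderm, which is also rich in Sparc. The Lama5 chain serves epithelia more widely, and the Lamb2 chain is best known from muscle synapses and the kidney filter.

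The start regions of the 3 genes that passed the test for a BPA effect in PGCLCs are printed here because these genes are the ones the comparison of PGCLCs turns on. The sequences are from the RefSeq promoter table (GRCm38.p6), which held 6 of the 9 genes, and the table held none for Lama1, Lamc1 and Nid2. Each runs 5′ to 3′ on the strand of its gene, from 250 bases before the RefSeq start up to the first base that the GENCODE M21 annotation puts inside the gene. Capitals mark matches, on either strand, to the GC box GGGCGG or the CCAAT box CCAAT. The TATA box TATAAA and the motif AGATAA of GATA factors were searched too, and no base lay in matches of more than 1 motif.
Lama5 (chr2:180225860-180226109, minus strand): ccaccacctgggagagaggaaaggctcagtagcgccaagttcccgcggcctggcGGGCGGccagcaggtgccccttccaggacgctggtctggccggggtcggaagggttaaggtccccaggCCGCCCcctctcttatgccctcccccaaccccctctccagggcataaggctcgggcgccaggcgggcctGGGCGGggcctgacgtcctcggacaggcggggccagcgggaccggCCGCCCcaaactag
Lamb2 (chr9:108479612-108479735, plus strand): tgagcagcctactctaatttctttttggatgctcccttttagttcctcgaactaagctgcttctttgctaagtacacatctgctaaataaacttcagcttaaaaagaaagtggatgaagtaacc
Nid1 (chr13:13437352-13437550, plus strand): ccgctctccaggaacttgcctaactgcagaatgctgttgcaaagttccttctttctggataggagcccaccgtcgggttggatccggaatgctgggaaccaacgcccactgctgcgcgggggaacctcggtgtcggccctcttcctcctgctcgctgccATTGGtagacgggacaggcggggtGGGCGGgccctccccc
The Lama5 region holds 4 GC boxes and is 72.4% G or C over its 250 bases. The Nid1 region holds 1 GC box and 1 CCAAT box. The Lamb2 region printed holds no match to any of the 4 motifs. Of 32851 promoters of the same length in the table, 32.7% hold a GC box, 33.8% a CCAAT box, 12.4% a TATA box and 9.99% the GATA motif. Among the 6 basement membrane genes in the table, 4 hold a GC box, 2 a CCAAT box and 0 either of the other motifs. These matches describe letters in a window and say nothing of binding.

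Counts assigned to genes ranged from 11785338 to 34309195 per library. The authors listed no gene under 10 counts, so an unlisted gene has at most 9 counts, which is 0.262 to 0.764 CPM (counts relative to the library total, on the usual scale). Germ cell markers summed to 843 to 905 CPM in BPA PGCLCs, 946 to 1092 CPM in untreated PGCLCs, 78.7 to 81.6 CPM in BPA EpiLCs and 71.5 to 79.5 CPM in untreated EpiLCs. The 8 epiblast markers, all listed in each of the 4 groups, summed to 851 to 972 CPM in BPA PGCLCs and 1192 to 1225 CPM in untreated PGCLCs. In EpiLCs they summed to 1892 to 1967 CPM with BPA and 1925 to 2148 CPM untreated. A pair of libraries stood apart from others of their group for the genes described here. In untreated EpiLC replicate 3 the 9 genes took 0.0852% of all counts, against 0.139% to 0.156% in the other 5 EpiLC libraries. In BPA PGCLC replicate 3 they took 0.302%, against 0.348% in BPA replicates 1 and 2, which is within the 0.294% to 0.315% of untreated PGCLCs. There 7 of the 9 genes lay below their mean in the other PGCLC libraries. That count was 2 and 3 in BPA PGCLC replicates 1 and 2 and 5 to 6 in untreated PGCLC libraries. Results that rest on these libraries are given with and without them.

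The 9 genes together had 2976 to 3180 CPM in untreated PGCLCs, against 912 to 1529 CPM in untreated EpiLCs. Of the 9 genes, 7 were higher in PGCLCs, by log2 changes of 1.13 for Lamb2 to 5.16 for Lama1, which is 35.8-fold, Lama5 was 1.98-fold lower, and Lamb1 did not pass the test. A gene is said to pass, to be called, or to rise or fall when its adjusted p from the edgeR quasi-likelihood test, after Benjamini-Hochberg adjustment over all genes tested, is under 0.05. In this comparison 55.6% of all 17608 genes tested passed, 30.4% higher and 25.2% lower. The median log2 change was 1.87 over the 9 genes and 0.07 over all genes tested. In bulk libraries like these, fewer cells of a type and less RNA per cell cannot be told apart. Levels are CPM on 1 scale over the 12 libraries, log2 changes are given with their standard error (SE), and every group has n = 3 libraries.

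Among the laminin chains, the largest stage difference was in the alpha 1 chain. Lama1 (chromosome 17, 67697259 to 67822647, mm10) had 158, 112 and 105 CPM in untreated PGCLC replicates 1, 2 and 3, against 4.12, 4.07 and 2.02 CPM in untreated EpiLCs. The groups lay far apart, with every untreated PGCLC library over 100 CPM, and the log2 change was 5.16 ± 0.36 (adjusted p = 3.03e-07). Lamc1 (chromosome 1, 153218922 to 153332786), whose gamma 1 chain is shared by most laminin trimers, had 600.1, 528 and 518 CPM in untreated PGCLCs, against 277, 275 and 137 CPM in untreated EpiLCs. All PGCLC libraries were above all EpiLC libraries, and the low EpiLC value is that of replicate 3 (log2 change 1.26 ± 0.21, adjusted p = 0.000305). Lamb1 (chromosome 12, 31265234 to 31329644), the beta chain of the same trimer, had 211, 188 and 186 CPM in untreated PGCLCs, against 206, 209 and 165 CPM in untreated EpiLCs. These groups overlapped and the log2 change was 0.01 ± 0.13 (adjusted p = 0.962). The alpha 1 and gamma 1 partners thus passed as higher in PGCLCs while the beta 1 partner did not pass. With an offset for exon length trends between libraries Lamb1 was lower in PGCLCs (log2 change -0.50, adjusted p = 0.00433).

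The other alpha chain moved the opposite way. Lama5 (chromosome 2, 180176373 to 180225859) had 216, 247 and 233 CPM in untreated PGCLCs, against 553, 521 and 308 CPM in untreated EpiLCs. Each untreated PGCLC library was below each untreated EpiLC library, and the log2 change was -0.99 ± 0.19 (adjusted p = 0.000912). Lamb2 (chromosome 9, 108479736 to 108490530) had 44.0, 52.1 and 49.7 CPM in untreated PGCLCs, against 22.8, 22.6 and 21.2 CPM in untreated EpiLCs. The groups did not overlap and differed by a log2 change of 1.13 ± 0.11 (adjusted p = 4.00e-06).

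Both nidogens, perlecan and Sparc were higher in untreated PGCLCs in every library. Nid1 (chromosome 13, 13437551 to 13512269) had 108, 125 and 109 CPM in untreated PGCLCs, against 16.5, 17.1 and 6.20 CPM in untreated EpiLCs (log2 change 3.08 ± 0.27, adjusted p = 2.21e-06). Nid2 (chromosome 14, 19751265 to 19811787) had 649, 634 and 673 CPM in untreated PGCLCs, against 108, 109 and 72.1 CPM in untreated EpiLCs (2.76 ± 0.14, adjusted p = 2.33e-08). The lowest EpiLC value of both nidogens was again that of replicate 3. Of the exon bases of Nid2, 437 (8.45%) also lie in exons of Rtraf on the other strand, and since no source used here tells whether strand was used in counting, reads from those bases could come from either gene. Hspg2 (chromosome 4, 137468769 to 137570630) had 756, 790.5 and 735 CPM in untreated PGCLCs, against 272, 234 and 118 CPM in untreated EpiLCs (1.87 ± 0.22, adjusted p = 2.57e-05). Sparc (chromosome 11, 55394500 to 55423183) had 437, 383 and 368 CPM in untreated PGCLCs, against 69.9, 69.4 and 82.2 CPM in untreated EpiLCs (2.42 ± 0.19, adjusted p = 8.80e-07). Sparc was the only 1 of the 9 genes whose EpiLC replicate 3 was its highest untreated EpiLC value. All 8 calls were made again in each fit that left out 1 library. Without untreated EpiLC replicate 3 the changes were 4.88 (Lama1), 0.94 (Lamc1), -1.26 (Lama5), 1.05 (Lamb2), 2.71 (Nid1), 2.54 (Nid2), 1.54 (Hspg2) and 2.46 (Sparc). Marker lists of several cell types moved with the stage too. For extraembryonic endoderm, the 12 visceral endoderm markers summed to 718 to 1124 CPM in untreated PGCLCs, against 7.87 to 10.8 CPM in untreated EpiLCs, with 10 higher and 0 lower. Most of the sum in untreated PGCLCs was Cubn, with 759, 537 and 464 CPM. The 12 parietal endoderm markers summed to 289 to 345 CPM in untreated PGCLCs, against 60.4 to 84.7 CPM in untreated EpiLCs, with 9 higher and 1 lower. Endothelial markers summed to 222 to 248 CPM in untreated PGCLCs, against 25.8 to 29.6 CPM in untreated EpiLCs, with 5 of 6 higher. Trophoblast markers summed to 149 to 185 CPM in untreated PGCLCs, against 5.51 to 9.12 CPM in untreated EpiLCs, with 5 of 7 higher, and 5 of 6 tested mesenchyme markers were higher. All 7 germ cell markers were higher as well, and of 8 epiblast markers 6 were lower and 1 higher. The part of these cell types in the stage differences was not tested.

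**Figure D1:**
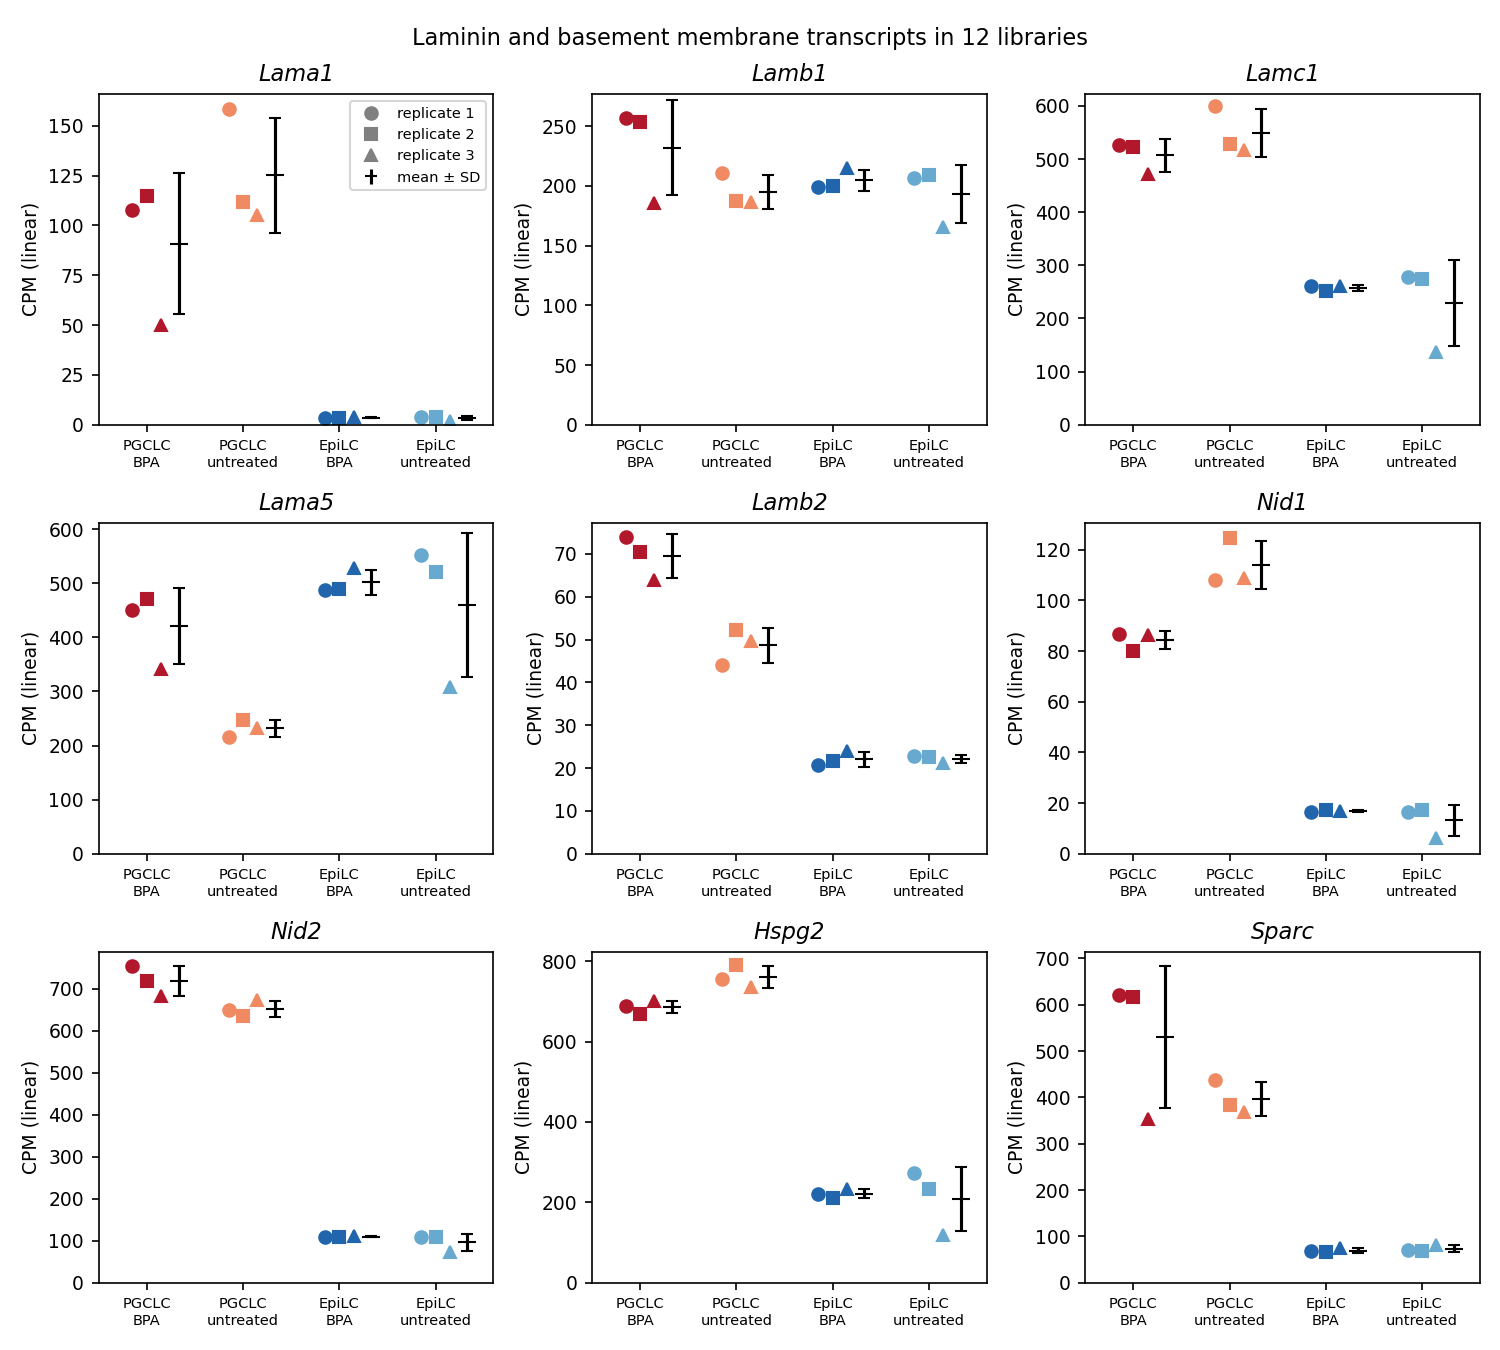
CPM (linear axes from 0) of the 9 genes in every library, with BPA PGCLCs, untreated PGCLCs, BPA EpiLCs and untreated EpiLCs from left to right; symbols are replicates, and bars are mean ± SD of 3 libraries. Lama1 is at 50.2 to 158 CPM in PGCLCs and at 2.02 to 4.12 CPM in EpiLCs, and untreated EpiLC replicate 3 is the lowest EpiLC library for 7 of the 9 genes.

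The low values of untreated EpiLC replicate 3 went with gene length. Over 10575 genes, its log2 level minus the mean of the other 5 EpiLC libraries had a median of -0.43 for the 3692 genes with at least 6 kb of exon and 0.64 for the 1125 genes with under 2 kb. In the other 5 EpiLC libraries these medians were 0.03 to 0.14 for the long genes and -0.21 to -0.03 for the short genes. Of the 9 basement membrane genes, which have 3788 to 14307 exon bases, 8 lay below the mean of the other 5 EpiLC libraries in replicate 3. The median over the 9 was -0.64. Sparc, the shortest of the 9 with 3788 exon bases, was the one above. Ribosomal protein genes, which are short, took 12.9% of the counts of this library, against 7.56% to 8.52% in the other EpiLC libraries. An offset for exon length, added after the data had been seen, was fitted for each of the 12 libraries. It thus also takes up length trends between the stages and cannot single out that of replicate 3. Under it the 8 genes that passed did so again and Lamb1 passed as lower. With it the change of Hspg2 was 1.22 and that of Lama5 -1.54. With replicate 3 left out instead, Hspg2 had 1.54, Lama5 -1.26 and Lamb1 -0.14, and Lamb1 did not pass (adjusted p = 0.370).

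**Figure D2:**
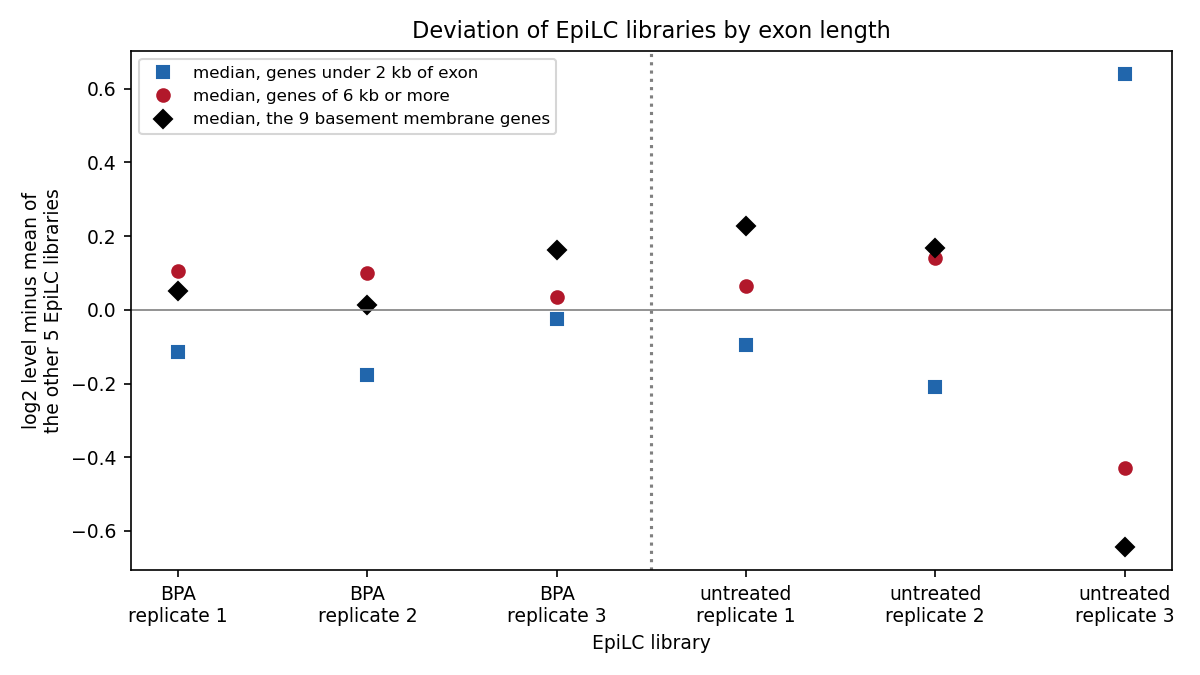
Median log2 level of each EpiLC library minus the mean of the other 5 EpiLC libraries, with BPA libraries on the left and untreated libraries on the right; squares are genes under 2 kb of exon, circles genes of at least 6 kb, diamonds the 9 basement membrane genes. Untreated replicate 3 has 0.64 for short genes, -0.43 for long genes and -0.64 for the 9 genes.

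Per kb of exon, which allows levels of different genes to be set side by side, the order of the 9 genes differed between the stages. In untreated PGCLCs the highest were Nid2 (126 ± 3.77 CPM per kb, mean ± SD), Sparc (105 ± 9.63), Lamc1 (66.3 ± 5.42) and Hspg2 (53.2 ± 1.96), and no neighbours among these 4 overlapped. Below them came Lama5 (20.4 ± 1.36) and Lamb1 (19.6 ± 1.4), which overlapped each other, then Nid1 (16.4 ± 1.36) and Lama1 (12.9 ± 2.99), which also overlapped, and last Lamb2 (7.99 ± 0.681). BPA PGCLCs had Sparc at 140.0 ± 40.5 and Nid2 at 139 ± 6.96 CPM per kb, which overlapped, then Lamc1, Hspg2, Lama5 and Lamb1 in the same order as in untreated PGCLCs. Their last places were taken by Nid1 (12.1 ± 0.525), Lamb2 (11.4 ± 0.838) and Lama1 (9.39 ± 3.65), with overlap between Nid1 and Lamb2 and between Lamb2 and Lama1. In untreated EpiLCs Lama5 came first (40.4 ± 11.7 CPM per kb) and Lama1 last (0.352 ± 0.124), and each neighbour from Lama5 down to Hspg2 overlapped the next. BPA EpiLCs had Lama5 first (44.0 ± 2.07) and Lama1 last (0.360 ± 0.0274), with Lamb2 (3.63 ± 0.288) and Nid1 (2.43 ± 0.0746) above it.

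**Figure D3:**
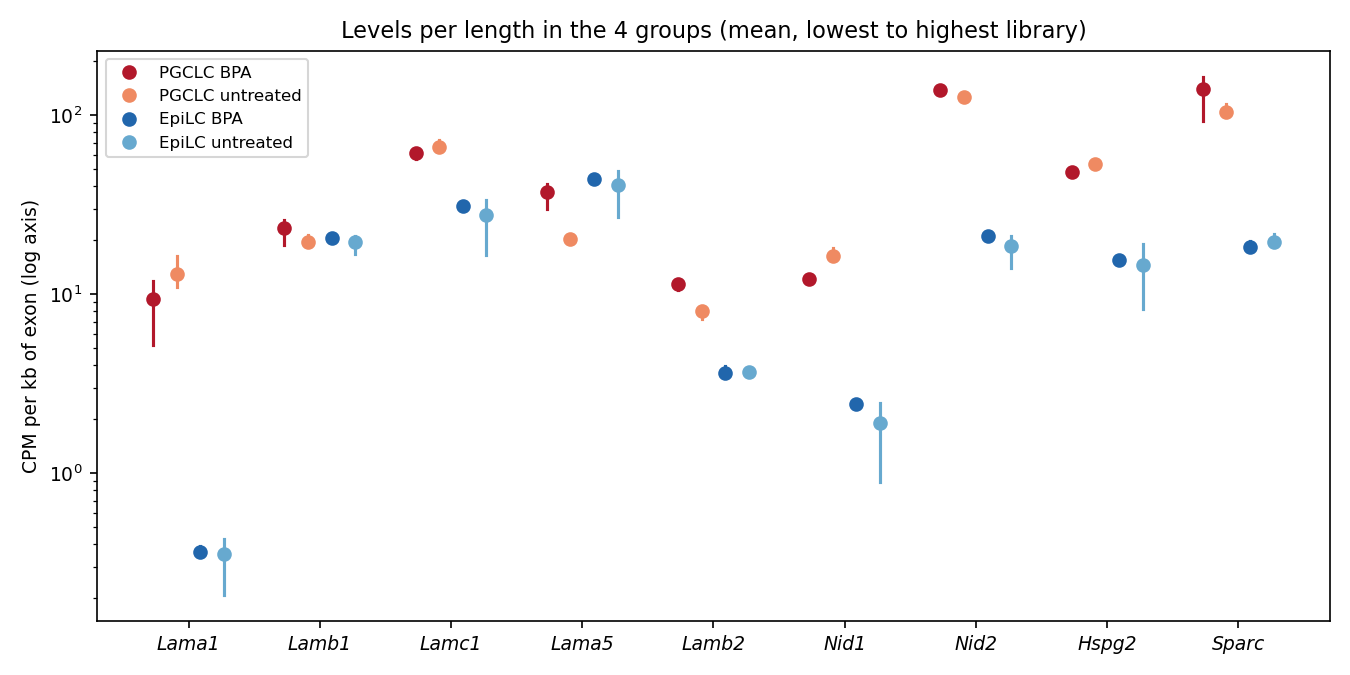
Level per kb of exon (log axis) of each gene in BPA PGCLCs, untreated PGCLCs, BPA EpiLCs and untreated EpiLCs, from left to right within a gene; points are means and lines run from the lowest to the highest of 3 libraries. Lama1 has 12.9 CPM per kb in untreated PGCLCs and 0.352 CPM per kb in untreated EpiLCs, and Lama5 has 20.4 CPM per kb in untreated PGCLCs and 40.4 CPM per kb in untreated EpiLCs.

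In PGCLCs of the BPA arm, Lama5 and Lamb2 rose and Nid1 fell. Lama5 was 1.83-fold higher, Lamb2 1.44-fold higher and Nid1 1.34-fold lower than in untreated PGCLCs. These are 2 of 9 genes higher and 1 of 9 lower. Over all 16753 genes tested, 13.9% passed, 8.13% higher and 5.72% lower. The median log2 change was 0.15 over the 9 genes and 0.01 over all genes tested.

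Among the laminin chains, Lama5 had 451, 471 and 341 CPM in BPA PGCLC replicates 1, 2 and 3, against 216, 247 and 233 CPM in untreated PGCLCs. The groups did not overlap, BPA replicate 3 was the lowest of its group, and the log2 change was 0.87 ± 0.12 (adjusted p = 0.00508). Lamb2 had 74.0, 70.5 and 64.0 CPM in BPA PGCLCs, against 44.0, 52.1 and 49.7 CPM in untreated PGCLCs. Here too every BPA library was above every untreated library (0.53 ± 0.10, adjusted p = 0.0144). Lama1 had 108, 114.5 and 50.2 CPM in BPA PGCLCs, against 158, 112 and 105 CPM in untreated PGCLCs. Those groups overlapped, BPA replicate 3 lay far below the rest, and the change of -0.45 ± 0.30 did not pass (adjusted p = 0.393). Lamb1 had 256, 254 and 186 CPM in BPA PGCLCs, against 211, 188 and 186 CPM in untreated PGCLCs (0.26 ± 0.13, adjusted p = 0.220). Lamc1 had 527, 522 and 472 CPM in BPA PGCLCs, against 600.1, 528 and 518 CPM in untreated PGCLCs (-0.10 ± 0.07, adjusted p = 0.446). Both genes overlapped between the groups, and for both, as for Lama1, BPA replicate 3 was the lowest BPA library.

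Of the linker proteins, Nid1 had 86.7, 80.1 and 86.2 CPM in BPA PGCLCs, against 108, 125 and 109 CPM in untreated PGCLCs. The groups did not overlap and the 3 BPA libraries lay close together (-0.42 ± 0.08, adjusted p = 0.0149). Nid2 had 754, 717 and 682 CPM in BPA PGCLCs, against 649, 634 and 673 CPM in untreated PGCLCs. Although the groups did not overlap, the change was 0.15 ± 0.05 and did not pass (adjusted p = 0.105). Hspg2 had 689, 669 and 701 CPM in BPA PGCLCs, against 756, 790.5 and 735 CPM in untreated PGCLCs, with no overlap (-0.14 ± 0.05, adjusted p = 0.0880). Sparc had 621, 616 and 353 CPM in BPA PGCLCs, against 437, 383 and 368 CPM in untreated PGCLCs. BPA replicates 1 and 2 of Sparc were above all untreated libraries and BPA replicate 3 was below them all (0.44 ± 0.20, adjusted p = 0.199).

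The calls in PGCLCs depended on single libraries, for the 9 genes as for all genes tested. Without BPA replicate 3, 6 of the 9 genes passed, 5 higher and 1 lower: Lama5, Lamb2 and Nid1 again, with Sparc (log2 change 0.66, adjusted p = 0.00156), Lamb1 (0.41, adjusted p = 0.00746) and Nid2 (0.19, adjusted p = 0.0234). In that fit 3206 of 17417 genes tested passed, against 2321 of 16753 with all libraries. It kept BPA replicates 1 and 2, which were closer to each other than untreated PGCLC libraries were. Their median chi-square per gene was 1.09, against 6.29 to 8.47 for pairs of untreated PGCLC libraries and 0.455 for sampling noise alone. The spread estimated with so close a pair may be too small. Without BPA replicate 1 or without BPA replicate 2, Lama5 alone passed (adjusted p = 0.0237 and 0.0193), with Lamb2 at 0.0806 and 0.0736 and Nid1 at 0.0608 and 0.0810. Over all genes, 677 of 17772 and 668 of 17730 passed in these fits. The log2 changes were 0.48 and 0.51 for Lamb2 and -0.44 and -0.39 for Nid1, beside 0.53 and -0.42 with all libraries. Without untreated replicate 3, Lamb2 did not pass (adjusted p = 0.0562) and Lama5 and Nid1 did, beside 891 of all 17585 genes. In 1 fit of all 12 libraries Nid1 did not pass (-0.43, adjusted p = 0.327), where 1579 of all 17608 genes passed. DESeq2 called 5 of the 9 genes, adding Nid2 and Hspg2, and 3462 of all 16753 genes. With the exon length offset 4 of the 9 genes passed, adding Hspg2 (-0.19, adjusted p = 0.0294), and 2175 of all 16753 genes.

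Markers of visceral endoderm differed strongly between the same groups. The 12 markers, among them the serum protein genes Afp and Apoa1, summed to 10034, 10530 and 5136 CPM in BPA PGCLC replicates 1, 2 and 3, against 1124, 783 and 718 CPM in untreated PGCLCs. Of the 12, 10 rose and 0 fell in BPA PGCLCs, and Trf was unlisted in every untreated PGCLC library. Thus BPA replicate 3, the lowest BPA library for 7 of the 9 basement membrane genes, was also the lowest for this sum. The 6 markers shared by extraembryonic endoderm, such as Gata6 and Sox17, summed to 991, 1030 and 378 CPM in BPA PGCLC replicates 1, 2 and 3. In untreated PGCLCs they summed to 221 to 341 CPM. Of the 6, 2 rose, Dab2 and Foxq1, and 0 fell, so Gata6 and Sox17 did not pass. Most of the sum was Dab2, with 715, 753 and 295 CPM in BPA PGCLCs, against 241, 180 and 149 CPM in untreated PGCLCs. The 12 parietal endoderm markers, all listed, summed to 445, 422 and 232 CPM in BPA PGCLC replicates 1, 2 and 3. In untreated PGCLCs they summed to 289 to 345 CPM, with 3 higher and 1 lower. BPA replicate 3 was thus the lowest BPA library for these sums too, and its parietal endoderm sum was below every untreated library. Mesenchyme markers summed to 23.9, 21.6 and 45.0 CPM in BPA PGCLCs, highest in replicate 3, and 18.3 to 24.0 CPM in untreated PGCLCs. Of the 6 tested, 0 passed. Of the 7 germ cell markers 3 fell (Prdm14, Tfap2c and Prdm1) and 0 rose, and of the 8 epiblast markers 2 fell and 1 rose. Of the 7 trophoblast markers 1 rose and 1 fell. In EpiLCs the visceral endoderm markers summed to 7.65 to 9.55 CPM with BPA and 7.87 to 10.8 CPM untreated, with Afp, Ttr, Apoa4 and Hnf4a unlisted in every EpiLC library. The part of these markers in the changes of Lama5, Lamb2 and Nid1 was not tested.

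**Figure D4:**
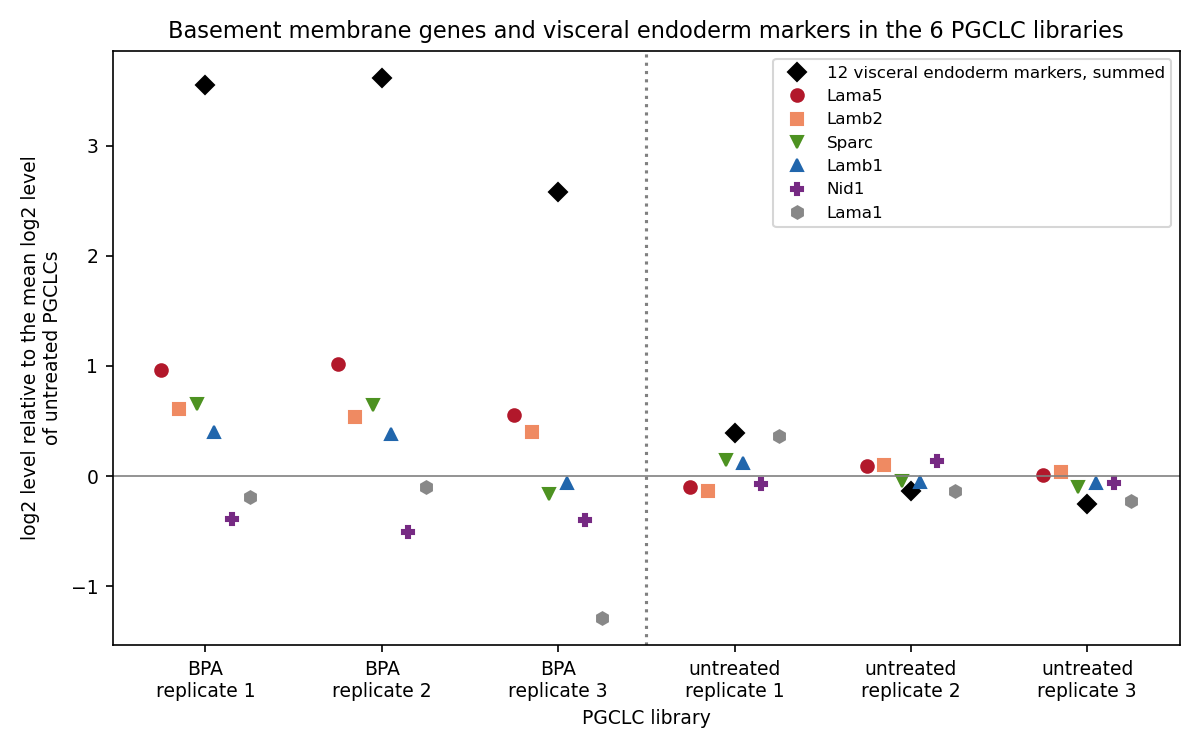
Log2 level in each PGCLC library relative to the mean log2 level of untreated PGCLCs, with BPA libraries on the left; diamonds are the summed visceral endoderm markers and the other symbols are 6 basement membrane genes. The marker sum is 10034, 10530 and 5136 CPM in BPA replicates 1, 2 and 3 against 718 to 1124 CPM in untreated libraries, and Sparc, Lamb1 and Lama1 in BPA replicate 3 are at or below the untreated libraries.

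In EpiLCs none of the 9 genes passed the test for a BPA effect, and 0% of all 15252 genes tested did by edgeR. Among the 9, 0 had an unadjusted p under 0.05, and DESeq2 and limma-trend called 0 of the 9 as well, with 16 calls by DESeq2 over all genes. Over all 15252 genes, 118 had an unadjusted p under 0.05 by edgeR, where 762.6 would be expected if no gene differed. The test thus gave fewer small p-values than that, and 0 of the 9 does not show that an effect is absent. The 3 BPA libraries lay close together for every gene: Lama5 had 487, 489 and 529 CPM in BPA EpiLCs, against 553, 521 and 308 CPM in untreated EpiLCs. The wide untreated group, with its low replicate 3, overlapped the BPA group (log2 change 0.13 ± 0.22, adjusted p = 0.943). Lama1 had 3.37, 3.29 and 3.78 CPM in BPA EpiLCs, against 4.12, 4.07 and 2.02 CPM in untreated EpiLCs (0.03 ± 0.28, adjusted p = 0.989). Nid1 had 16.3, 17.4 and 17.0 CPM in BPA EpiLCs, against 16.5, 17.1 and 6.20 CPM in untreated EpiLCs. Its change of 0.35 ± 0.35 was the largest of the 9 in EpiLCs, and it was 0.00 without untreated replicate 3. Sparc, at 68.2, 65.5 and 74.8 CPM in BPA EpiLCs and 69.9, 69.4 and 82.2 CPM in untreated EpiLCs, had a log2 change of -0.07 ± 0.12 (adjusted p = 0.943). The other 5 genes had log2 changes of 0.01 ± 0.11 (Lamb2), 0.10 ± 0.13 (Lamb1), 0.10 ± 0.29 (Hspg2), 0.17 ± 0.27 (Lamc1) and 0.20 ± 0.18 (Nid2). The BPA and untreated groups overlapped for each of the 9 genes. Without untreated replicate 3 the changes of Lama1, Lamb1, Lamc1, Lama5, Lamb2 and Hspg2 turned negative, from -0.02 for Lamb1 to -0.23 for Lama1, and 0 of the 9 passed.

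The difference between the BPA effects of the stages was tested directly, in 1 fit of the 12 libraries, as the log2 change with BPA in PGCLCs less the one in EpiLCs. None of the 9 genes passed, where 1.32% of all 17608 genes tested did, 1.01% with a higher and 0.312% with a lower value in PGCLCs. Lamb2 had the smallest p (difference 0.52 ± 0.15 log2 units, adjusted p = 0.134), followed by Lama5 (0.73 ± 0.27, adjusted p = 0.235). These 2 of the 9 had an unadjusted p under 0.05, as did 2449 of all 17608 genes. DESeq2 called 1 of the 9, Lamb2, and 897 of all 17608 genes. Nid1 stood at -0.76 ± 0.36 (adjusted p = 0.378) and Sparc at 0.51 ± 0.26 (adjusted p = 0.417). The result turned on the libraries that stood apart. Lama5 passed without untreated EpiLC replicate 3 (0.99, adjusted p = 0.00976), where 767 of all 18885 genes did. Sparc passed without BPA PGCLC replicate 3 (0.73, adjusted p = 0.0217), where 744 of all 17871 genes did. Without both, a setting added after the data had been seen, 5 of the 9 passed: Lama5 (1.09, adjusted p = 0.000124), Sparc (0.64, adjusted p = 0.00566), Lamb2 (0.61, adjusted p = 0.0175) and Lamb1 (0.41, adjusted p = 0.0172) higher, and Nid1 (-0.46, adjusted p = 0.0378) lower. In that fit 2088 of all 18157 genes tested passed. It kept only BPA PGCLC replicates 1 and 2, the close pair, so its spread may be too small.

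**Figure D5:**
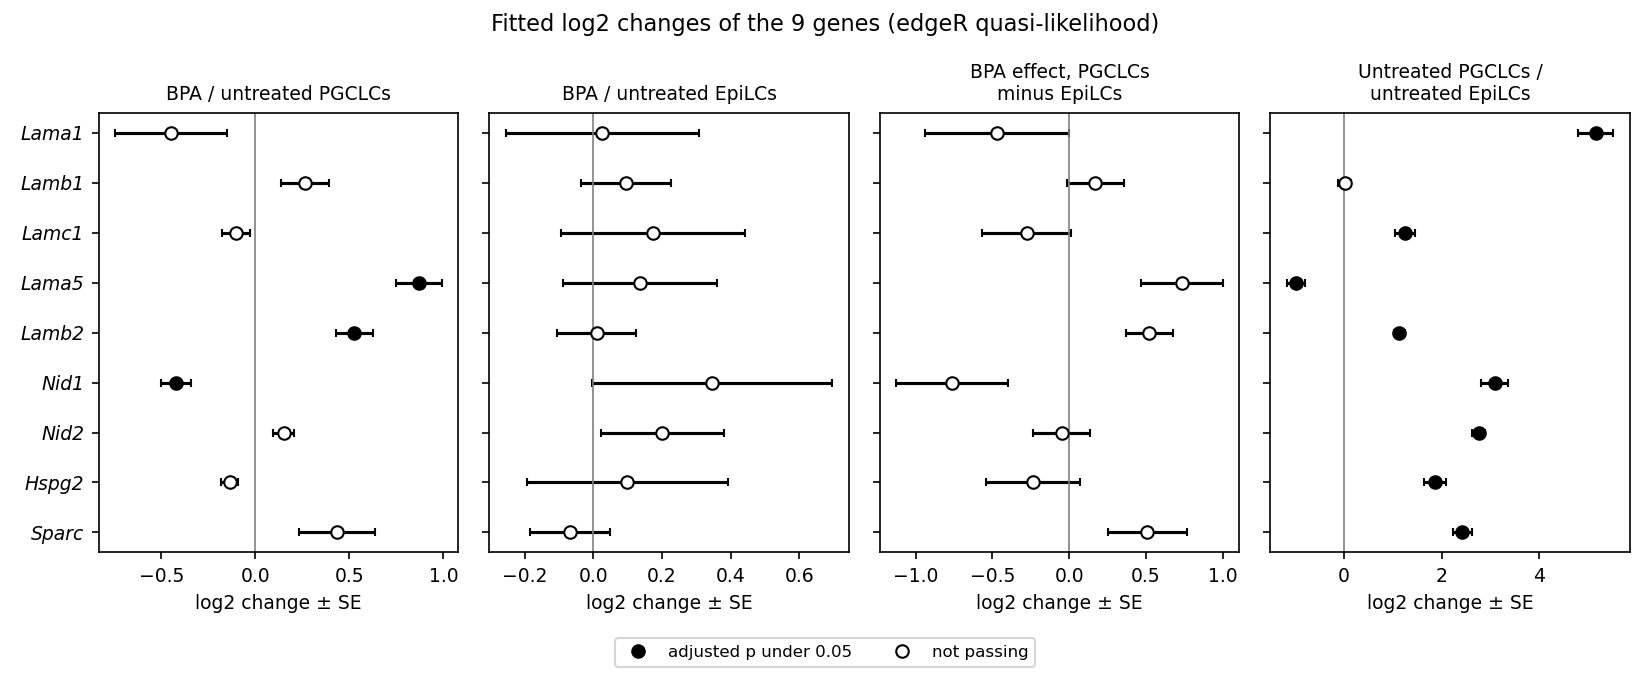
Fitted log2 change ± SE of the 9 genes, from left to right for BPA against untreated PGCLCs, BPA against untreated EpiLCs, the difference between these effects, and untreated PGCLCs against untreated EpiLCs; filled points have an adjusted p under 0.05 and the axes differ between panels. Lama5 (0.87), Lamb2 (0.53) and Nid1 (-0.42) are filled in the first panel, none in the next 2, and 8 genes in the last.

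Ratios between related chains within a library do not depend on how libraries are scaled. Per kb, Lama1 was 0.282, 0.286 and 0.174 of Lama5 in BPA PGCLCs and 0.861, 0.531 and 0.532 of Lama5 in untreated PGCLCs. The groups did not overlap, and the log2 ratio was lower in BPA PGCLCs by 1.37, at -2.05 ± 0.41 against -0.68 ± 0.40 (SD). In untreated EpiLCs Lama1 was 0.00878, 0.00920 and 0.00771 of Lama5, so the log2 ratio was 6.19 higher in untreated PGCLCs than in untreated EpiLCs. Lamb1 was 2.12, 2.21 and 1.78 times Lamb2 in BPA PGCLCs and 2.94, 2.21 and 2.30 times Lamb2 in untreated PGCLCs. BPA replicate 2 and untreated replicate 2 almost met, and the log2 difference was -0.28; it was -1.11 between untreated PGCLCs and untreated EpiLCs. Nid1 was 0.0857, 0.0833 and 0.0941 of Nid2 in BPA PGCLCs and 0.124, 0.147 and 0.121 of Nid2 in untreated PGCLCs, a log2 difference of -0.57 with no overlap. Between the stages the Nid1 to Nid2 ratio differed by 0.45, and by 0.17 without untreated EpiLC replicate 3. For each of these 6 differences the exact two-sided permutation test gave p = 0.1, the smallest value that 3 libraries against 3 can give. In EpiLCs the BPA differences were -0.07, 0.10 and 0.27 for the 3 pairs, with overlap in all of them (exact permutation p = 0.5, 0.5 and 0.7).

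Other genes of the same matrix were read from 5 lists. Between the stages, 4 of 7 tested genes for other laminin chains and netrins were higher in untreated PGCLCs and 0 lower. Lama4, a chain of vessel laminins, was higher (3.40 ± 0.31), as was the laminin-related guidance gene Ntn1 (4.34 ± 0.54). Ntn4, unlisted in every untreated EpiLC library and in 1 PGCLC library, was at least 1.02-fold higher. It lost its call with unlisted genes read as 9 counts (log2 change 0.55, adjusted p = 0.419) and with the replicate block (adjusted p = 0.102). Several fits that left out 1 library lost it too (adjusted p up to 0.0813). Of 13 receptor genes 7 were higher and 4 lower. The heparan sulphate receptor Sdc4 was higher (3.81 ± 0.12) while its relative Sdc1 (-1.15 ± 0.11) and the laminin-binding integrin gene Itga3 (-1.05 ± 0.12) were lower. Of 24 tested genes for other matrix glycoproteins 16 were higher and 0 lower, and fibronectin (Fn1) had 1621, 1671 and 1574 CPM in untreated PGCLCs, against 325, 322 and 156 CPM in untreated EpiLCs (2.60 ± 0.22). Tinagl1, whose product binds laminin (4.40 ± 0.23), and Frem2 (3.37 ± 0.37) and Egfl6 (2.53 ± 0.32) of the epithelial basement membrane were among them. The glycosylation list had 7 higher and 2 lower of 19, with the heparan sulphate sulphotransferase gene Hs6st1 at 1.20 ± 0.11 and Pomgnt1, a dystroglycan glycosylation gene, at -0.58 ± 0.09. Of 16 proteases and inhibitors 9 were higher, such as Adamts9 (2.58 ± 0.18), and 1 lower. The medians of the last 4 lists, in this order, were 0.58, 1.26, 0.16 and 0.75, beside 0.07 over all genes.

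In BPA PGCLCs the matrix glycoprotein list had 6 of 24 tested genes higher and 0 lower, beside the 8.13% of all genes that were higher. Agrn, a heparan sulphate proteoglycan that binds laminin, had 528, 557 and 425 CPM in BPA PGCLCs, against 287, 329 and 281 CPM in untreated PGCLCs (0.76 ± 0.11, adjusted p = 0.00558). Tinagl1 rose by 1.03 ± 0.18 and Smoc1, a relative of Sparc, by 1.09 ± 0.24, and both were lowest among the BPA libraries in replicate 3. Vitronectin (Vtn) was unlisted in every untreated PGCLC library and at least 3.11-fold higher, at only 0.617, 0.964 and 1.07 CPM in BPA PGCLCs. Its call was lost with the replicate block (adjusted p = 0.179) and in each fit that left out 1 library (adjusted p = 0.0547 to 0.165). Without untreated replicate 3, and also without BPA replicate 2, 1 gene of this list passed; the count was 2 without BPA replicate 1, untreated replicate 1 or untreated replicate 2, 4 without BPA replicate 3 and 3 with the replicate block. The proteases and inhibitors had 5 higher and 1 lower of 16. Bmp1, a protease that processes matrix proteins including laminin chains, had 62.6, 59.0 and 44.6 CPM in BPA PGCLCs, against 19.9, 16.3 and 19.7 CPM in untreated PGCLCs (1.58 ± 0.16, adjusted p = 0.00135). Mmp15 (1.11 ± 0.11) and Adamts1 (1.84 ± 0.21) also rose, and the gelatinase gene Mmp9 fell, with 11.1, 9.88 and 9.08 CPM in BPA PGCLCs, against 26.3, 19.8 and 20.0 CPM in untreated PGCLCs (-1.13 ± 0.16). Receptors had 2 higher and 2 lower of 13. Itgb4, whose integrin binds laminin in epithelia, had 28.5, 30.1 and 22.4 CPM in BPA PGCLCs, against 9.31, 8.96 and 6.91 CPM in untreated PGCLCs (1.70 ± 0.18, adjusted p = 0.00166), and the collagen receptor gene Ddr1 rose by 0.90 ± 0.18. Sdc1 (-0.42 ± 0.11, adjusted p = 0.0481) and Itga1 (-1.01 ± 0.28, adjusted p = 0.0493) fell, and both lost their calls with the replicate block (adjusted p = 0.0682 and 0.0932).

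Among other laminin chains and netrins in BPA PGCLCs, 1 of 7 tested genes rose and 1 fell. Lama4 fell, with 4.49, 5.89 and 8.43 CPM in BPA PGCLCs, against 17.1, 14.5 and 9.40 CPM in untreated PGCLCs (-1.11 ± 0.29, adjusted p = 0.0428). The groups did not overlap, and the call was lost with the replicate block (adjusted p = 0.0866). Endothelial markers, which could bear on Lama4, had a median log2 change of -0.82, with 1 of 6 positive and 2 of 6 passing as lower. They summed to 204 to 247 CPM in BPA PGCLCs and 222 to 248 CPM in untreated PGCLCs. Most of that sum was Pecam1, with 183, 173 and 203 CPM in BPA PGCLCs, against 167, 184 and 187 CPM in untreated PGCLCs. The part of these markers in the change of Lama4 was not tested. The glycosylation list had 2 higher of 19, Ndst1 (0.42 ± 0.08) and Pomt2 (0.41 ± 0.11), and 0 lower. Neither passed in the fit of all 12 libraries (adjusted p = 0.408 and 0.118). The medians were 0.13 for receptors, 0.23 for glycoproteins, -0.01 for glycosylation and 0.22 for proteases, beside 0.01 over all genes. In EpiLCs 0 genes of any of the 5 lists passed, and the smallest adjusted p of each was 0.943 (Ntn1, Sdc2, Npnt, Hs2st1 and Mmp11).

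The genes whose profile over the 12 libraries was most like the mean standardised log2 CPM of Lama1, Lamb1 and Lamc1, among 16116 protein-coding genes, were Cpox, Lrp2, Ptprk, Elf4 and Washc2. Their Pearson correlations were 0.982, 0.981, 0.981, 0.979 and 0.979. The 12 points fall into the 2 stages and share the libraries that stood apart, so these values describe likeness across the stages and little within them.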

How the data were processed

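The deposited count files hold whole-number counts per Ensembl gene, 1 file per library, and per the submitters' processing notes the tools were bcl2fastq 2.19.1.403, FastQC, STAR and HTSeq with the mm10 build; other versions, and whether counting used strand, are not given in the sources used here. Per the labels' protocols, the kit was for mRNA and keeps strand. Reads with no feature (4.42% to 10.7%) or an ambiguous one (4.56% to 6.07%) were left out of library sizes and tests. The authors also deposited CPM, 1 table per stage, which equal the counts divided by 1 constant per library for 100% of values within 0.1%; they served only in an alternative (limma-trend, limma 3.58.1, on log2 CPM plus 1).

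The 9 genes, the lists and the tests were chosen with earlier results of these data known. Unlisted genes were read as 0. After filterByExpr and TMM scaling, edgeR 4.0.16 in R 4.3.3 gave quasi-likelihood tests, and p-values were adjusted by Benjamini-Hochberg over all genes tested. BPA effects were fitted within a stage (6 libraries), the stage difference and the difference between BPA effects in all 12. A standard error is the size of the log2 change over the root of its F statistic. Printed CPM come from 1 TMM scaling of the 12 libraries, while each fit used its own. Symbols, exon lengths and coordinates are from GENCODE M21 (mm10), which held 21695 of 21728 IDs. A fold against an unlisted group is a lower bound, with 9 counts per library. All 9 genes are named, and of each list up to 4 called genes with the smallest p, or the 1 with the smallest p where none was called; the 5 genes of like profile followed a fixed rule. The alternatives tried were DESeq2 1.42.0, RLE factors, scaling by library size, a minimum of 1 CPM in 3 libraries or no minimum, a replicate block, unlisted genes as 9, other sets of libraries, and leaving out 1 library at a time; an exon length offset (loess, span 0.5) and leaving out 2 libraries were added after the data were seen. The pipeline was tested on simulated data. No replicate pair agreed within sampling noise. One gene of the lists is counted but not reported here.

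EpiLC libraries with the same replicate number in their titles deviated together (r = 0.138, 0.145 and 0.296 over genes), which by the rule used (every r over 0.1) pairs them, although BPA replicate 1 correlated more with untreated replicate 2 (0.262); PGCLC libraries did not (0.023, -0.021 and -0.060). The numbers come from the sample titles.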

Additional observations from a re-analysis of the deposited data

Results flagged for a closer look

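The BPA effect differed between PGCLCs and EpiLCs, by the test of the difference itself in 1 edgeR quasi-likelihood fit, for 5 genes of the matrix lists and for 0 of the 9 basement membrane genes; over all genes tested 1.32% passed. Itgb4, a laminin-binding integrin subunit, had a difference of 1.75 ± 0.24 log2 units (adjusted p = 0.00518), with 28.5, 30.1 and 22.4 CPM in BPA PGCLCs, 9.31, 8.96 and 6.91 CPM in untreated PGCLCs, 4.83, 5.68 and 5.41 CPM in BPA EpiLCs and 5.65, 5.99 and 4.87 CPM in untreated EpiLCs. The protease gene Bmp1 had 1.46 ± 0.23 (adjusted p = 0.0100) and the membrane-bound protease gene Mmp15 1.13 ± 0.18 (adjusted p = 0.00979). Mmp9 had -1.17 ± 0.25 (adjusted p = 0.0479) and did not pass with RLE factors (adjusted p = 0.0593) or the replicate block (adjusted p = 0.0840). Plau, a urokinase gene, was unlisted in every untreated PGCLC library, so its fitted difference of 7.81 (adjusted p = 0.00597) depends on how unlisted genes are read and is no bound; it had 0.780, 0.998 and 1.73 CPM in BPA PGCLCs and 1.70 to 2.16 CPM in EpiLCs. Groups of 3 libraries were too small for a test of single outlying libraries.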

How the results depend on the processing

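The 9 genes gave 8 calls between the stages under every setting run, or 9 with the exon length offset, and 0 calls for BPA in EpiLCs under every setting. For BPA in PGCLCs the count was 3, 5 with DESeq2, 4 with the exon length offset, 2 in the fit of all 12 libraries, and 1 to 6 when 1 library was left out. Over all genes the count moved too, from 2321 to 3462 with DESeq2, 2175 with the exon length offset and 1579 in the fit of all 12 libraries. It was between 668 and 3206 when 1 library was left out. With the replicate block the count of the 9 genes stayed 3, and the block changed no call of the 9 genes in any comparison. For the difference between BPA effects it was 0, 1 with DESeq2, 1 with the exon length offset, 0 to 1 with 1 library left out and 5 without both libraries that stood apart. Over all genes it was 232, 897 with DESeq2, 385 with the exon length offset, 83 to 767 with 1 library left out and 2088 without both. For the ratios, a replicate block added after the data were seen keeps the mean differences (for Lama1 to Lama5 -1.37 in PGCLCs and -0.07 in EpiLCs), and its exact two-sided sign-flip test cannot give a p below 0.25 with 3 pairs.

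Among the 9 genes and 3 ratios, signs turned only where the change as reported did not pass. For BPA in EpiLCs the exon length offset gave -0.079 (Lama1), -0.064 (Lamb1), -0.00785 (Lama5), -0.070 (Lamb2) and -0.049 (Hspg2), and Lamb2 had -0.00375 with RLE factors, -0.00323 with DESeq2 and -0.00565 in the fit of 12 libraries. With 1 library left out, ranges were -0.23 to 0.19 (Lama1), -0.022 to 0.16 (Lamb1), -0.11 to 0.34 (Lamc1), -0.10 to 0.30 (Lama5), -0.062 to 0.060 (Lamb2) and -0.19 to 0.35 (Hspg2). Lamb1 between the stages had -0.056 with RLE factors, -0.056 with DESeq2, -0.026 in the 6 untreated libraries, -0.50 with the exon length offset, and -0.14 to 0.068 with 1 library left out. For the difference between BPA effects, Nid2 had 0.00306 with unlisted genes as 9 and, without both libraries, Lama1 had 0.051, Lamc1 0.037, Nid2 0.15 and Hspg2 0.03; with 1 left out the ranges were -0.67 to -0.18 (Lama1), -0.43 to 0.023 (Lamc1), -0.14 to 0.15 (Nid2) and -0.48 to 0.078 (Hspg2). The BPA difference of the Nid1 to Nid2 ratio in EpiLCs was -0.011 to 0.43. The cause of these changes was not tested.

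Depth limits Lama1 in EpiLCs, with as few as 29 counts, more than the other 8 genes. A change of scaling moved the median log2 change of all genes by at most 0.07.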
